A study of Homo sapiens with 28 samples.

Results

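H3K27ac, a histone mark of active promoters and enhancers, was described over 5 genes of the TFE3 pathway in SW872 cells, an established human liposarcoma line. The genes were the TFE3 relatives MITF and TFEB, the TFE3 regulator FLCN, and the autophagy and lysosomal genes SQSTM1 and GPNMB. A peak was counted where it overlapped a gene body on GRCh37/hg19 widened by 20 kb on each side. This held for 214 of the 654580 peaks in 14 lists, 70 of them over MITF, 62 over SQSTM1, 35 over FLCN, 32 over TFEB and 15 over GPNMB. The H3K27ac libraries were made in duplicate from stably transduced cells, 2 for each of 7 labels. All cells were the same parental line. They carried an empty vector, full-length TFE3 or CAMTA1, the fusions YAP-TFE3 or TAZ-CAMTA1, or TAZ4SA or YAP5SA, the forms of TAZ and YAP that the Hippo pathway cannot switch off. Per the labels, cultures were at 90% confluence 48 hours before collection, apart from those with CAMTA1, described as collected below confluence. The study's methods say so for its RNA sequencing, while for ChIP they give 90% confluence for every construct. If CAMTA1 cells were below confluence here, construct and confluence cannot be told apart for that label. Per the study's methods, replicates for sequencing were made by transducing and selecting the cells separately. With 2 libraries per label, p-values below measure the spread between single libraries and not between constructs.

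In 14 of 14 lists the construct written into the peak names was not the labelled one. Peaks of the YAP5SA label were named TFE3, peaks of the YAP-TFE3 label were named YAP5SA, and peaks of the TFE3 label were named YAP-TFE3. Names of CAMTA1, empty vector, TAZ4SA and TAZ-CAMTA1 stood in the lists labelled empty vector, TAZ4SA, TAZ-CAMTA1 and CAMTA1, in that order. Libraries are called by their labels here, and the comparisons of TFE3-containing constructs with the others are given under both namings. Of the 4 lists in the TFE3-containing group, 2 were the same under both namings, so the comparisons are not independent. The lists held from 5721 peaks (TFE3 replicate 1) to 102009 peaks (TAZ4SA replicate 1), and the shortest list stood apart from its replicate, which held 47308 peaks. The read depth behind each list is unknown. For this reason the peaks of a list were ranked by their −log10 p within that list, with rank 1 the best, and the rank was also given as a percent of the list.

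MITF, TFEB and TFE3 are basic helix-loop-helix leucine zipper transcription factors that bind DNA as dimers at E-box and M-box sequences and switch on lysosomal and autophagy genes when they are in the nucleus. FLCN, folliculin, acts on the Rag GTPases at the lysosome, through which mTORC1 phosphorylates TFEB and TFE3 and keeps them in the cytoplasm. SQSTM1 encodes p62, a receptor that brings ubiquitinated cargo to autophagosomes. GPNMB encodes a membrane glycoprotein of lysosomes and melanosomes. SQSTM1, GPNMB and FLCN are themselves known targets of the family.

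The start sites of these genes differ in base composition and motifs, and 5 upstream sequences are shown for that reason. They are the 250 bases before a RefSeq start on GRCh38.p14, 5′ to 3′ on the strand of the gene. RefSeq windows were found for 5 of 5 genes, 11 in all. Capitals mark CpG dinucleotides in the FLCN, SQSTM1 and MITF start 2 sequences, and motif matches in the GPNMB and MITF start 3 sequences.
FLCN, chr17:17237169-17237418, minus strand: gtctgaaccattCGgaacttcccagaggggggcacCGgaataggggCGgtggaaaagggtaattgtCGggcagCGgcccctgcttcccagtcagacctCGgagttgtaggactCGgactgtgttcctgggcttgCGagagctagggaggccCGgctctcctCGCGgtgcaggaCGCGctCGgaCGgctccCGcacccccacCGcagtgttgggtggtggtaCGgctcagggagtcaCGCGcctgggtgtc
SQSTM1, start 3, chr5:179820655-179820904, plus strand: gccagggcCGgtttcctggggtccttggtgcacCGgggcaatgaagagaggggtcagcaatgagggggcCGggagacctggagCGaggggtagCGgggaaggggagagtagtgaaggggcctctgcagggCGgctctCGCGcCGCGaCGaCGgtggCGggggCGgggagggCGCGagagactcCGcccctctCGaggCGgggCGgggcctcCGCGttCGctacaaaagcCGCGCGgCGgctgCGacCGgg
MITF, start 2, chr3:69763561-69763810, plus strand: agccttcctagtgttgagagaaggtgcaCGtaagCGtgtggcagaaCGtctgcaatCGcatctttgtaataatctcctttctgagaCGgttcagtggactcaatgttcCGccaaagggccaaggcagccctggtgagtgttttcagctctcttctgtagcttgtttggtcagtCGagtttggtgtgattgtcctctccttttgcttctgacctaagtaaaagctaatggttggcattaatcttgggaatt
MITF, start 3, chr3:69936342-69936591, plus strand: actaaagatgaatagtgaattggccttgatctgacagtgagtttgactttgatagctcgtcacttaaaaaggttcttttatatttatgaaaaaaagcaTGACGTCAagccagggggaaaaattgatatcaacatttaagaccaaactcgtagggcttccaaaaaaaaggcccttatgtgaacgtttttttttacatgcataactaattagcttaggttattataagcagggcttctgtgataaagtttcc
GPNMB, chr7:23246525-23246774, plus strand: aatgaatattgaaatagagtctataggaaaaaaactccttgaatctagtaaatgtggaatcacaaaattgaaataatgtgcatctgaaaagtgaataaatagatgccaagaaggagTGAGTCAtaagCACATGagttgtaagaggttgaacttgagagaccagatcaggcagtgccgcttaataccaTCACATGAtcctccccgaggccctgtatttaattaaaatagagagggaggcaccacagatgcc

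The SQSTM1 sequence held 29 CpG dinucleotides and the FLCN sequence 20, against a median of 11 over the 35116 windows of the table. GPNMB had 2. Counts differed within genes, at 20, 7 and 4 for MITF starts 1 to 3, 15, 30 and 27 for the TFEB starts, and 27 and 24 for SQSTM1 starts 1 and 2. MITF start 1 thus equalled FLCN in CpG count. Neither MITF nor TFEB had a peak over its annotated 5′ end on GRCh37. The builds were not lined up, so peaks at these RefSeq starts were not assessed. The GPNMB sequence held the M-box core CATGTG, as its reverse complement CACATG at both places, the more downstream of them inside the extended M-box TCATGTGA. The core was present in 9.42% of all windows on either strand and the extended form in 0.851%. The GPNMB sequence also held the AP-1 motif TGACTCA, read on the other strand as TGAGTCA, which 4.20% of all windows had. MITF start 3, that of the melanocyte transcript, held the cyclic AMP response element TGACGTCA, found in 1.65% of all windows. The E-box CACGTG was in none of the 11 windows and in 6.34% of all windows, and the TEAD motif CATTCC was in 1 of the 11, at the first MITF start, and in 11.9% of all windows. A match is a description of the letters and does not show binding.

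The 5 loci spread over a wide range of ranks. FLCN and SQSTM1 had a peak in 14 of 14 libraries, MITF and GPNMB in 12 of 14, and TFEB in 9 of 14. Peaks of all lists that touched were merged across the genome into 138636 regions, of which 2.93% had a peak in all 14 libraries, 10.1% in at least 12 and 14.2% in at least 9, though a gene window is wider than a region. The best peak over FLCN was at a median of 0.0906% of its list, and that over SQSTM1 at 11.2%. The medians over the libraries with a peak were 35.2% for GPNMB, 50.9% for MITF and 56.6% for TFEB. When each list was cut to its 5721 best peaks, the length of the shortest list, FLCN had a peak in 14 libraries, SQSTM1 in 11, MITF in 1, and TFEB and GPNMB in 0. At equal list length the loci of both transcription factors and GPNMB thus fell almost wholly out of the lists, and the FLCN peak stayed in each.

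**Figure D1:**
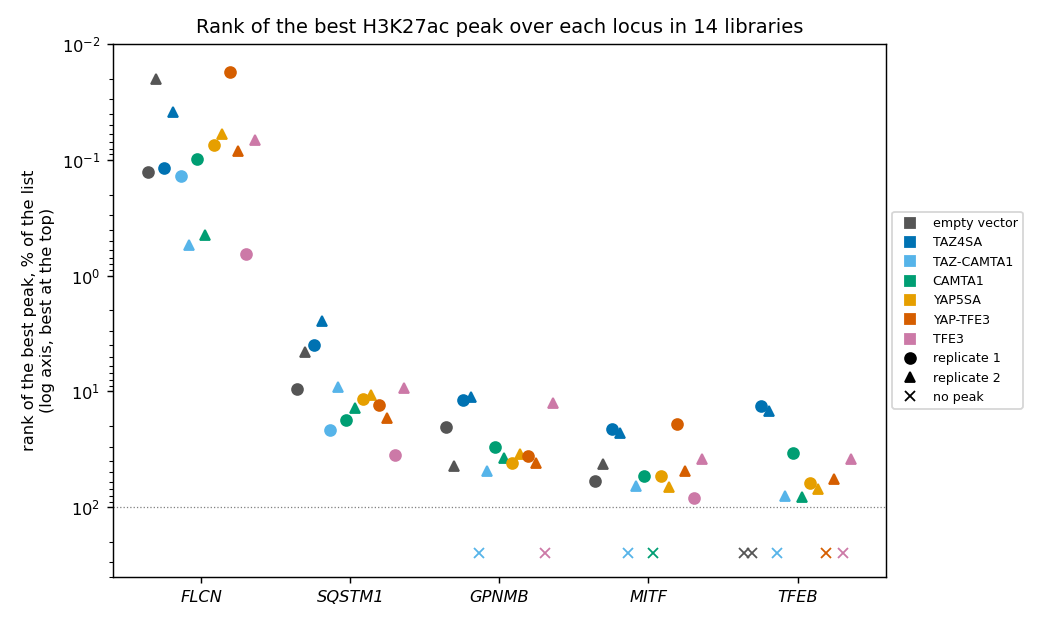
Rank of the best H3K27ac peak over each locus as a percent of its list (log axis, best at the top), with 1 point per library coloured by label, circles for replicate 1, triangles for replicate 2 and crosses for libraries with no peak. FLCN lies at 0.647% or better in every library, SQSTM1 between 2.45% and 35.7%, and GPNMB, MITF and TFEB at 11.2% or worse.

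MITF, whose gene body on chr3:69788586-70017488 is 228.9 kb long, had between 0 and 11 peaks per library and none over its annotated 5′ end. Libraries without a peak were TAZ-CAMTA1 replicate 1 and CAMTA1 replicate 2. Of the merged regions, 15 lay over MITF. The most widely shared were the region 22.76 to 26.55 kb downstream of the 5′ end and the region 44.66 to 49.44 kb downstream, each with a peak in 10 libraries. On GRCh38 the second RefSeq start of MITF is 24.3 kb from the first and the third is 197.1 kb from it. The builds were not lined up, so these distances are only set side by side. The region farthest downstream, at 207.03 to 207.31 kb, had a peak in empty vector replicate 2 only, at 92.7% of its list.

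The best MITF peak was in the 44.66 to 49.44 kb region in both libraries labelled empty vector, TAZ4SA and YAP5SA and in CAMTA1 replicate 1. In TAZ-CAMTA1 replicate 2 it was at 126.94 kb, far inside the gene. In TFE3 replicates 1 and 2 and YAP-TFE3 replicate 2 its summit lay 25.22, 25.68 and 25.52 kb from the 5′ end, in the first of the shared regions. In YAP-TFE3 replicate 1 it was a 2126 bp peak with its summit at 31.17 kb, at 19.1% of the list and 8.73-fold over background. As a percent of the list this was the best MITF rank of any library. By position in the list the best was 4775, in TFE3 replicate 1, whose list was the shortest. The region around the 31.17 kb summit of YAP-TFE3 replicate 1, 29.57 to 32.77 kb, had a peak in 3 of 4 libraries labelled YAP-TFE3 or TFE3 and in 3 of 10 others. Without the libraries of the former it would not have been shared widely enough to be tested, so the comparison of its ranks is a description. The difference was -0.24 in log10 rank percent by label and -0.02 grouped by the peak names. The regions at 22.76 to 26.55 kb and 44.66 to 49.44 kb differed by -0.13 (exact permutation p = 0.285) and 0.05 (exact permutation p = 0.725). The regions at 51.12 to 52.77 kb and 126.27 to 128.26 kb also had a peak in only 3 of 10 others. They too reached the minimum of 4 libraries only through the labels YAP-TFE3 and TFE3. Their differences of 0.02 and -0.07 are thus also a description. Of all 32530 regions tested, 2.13% had a p under 0.05, and no MITF region had a p under 0.854 once adjusted over them by the Benjamini-Hochberg method.

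**Figure D2:**
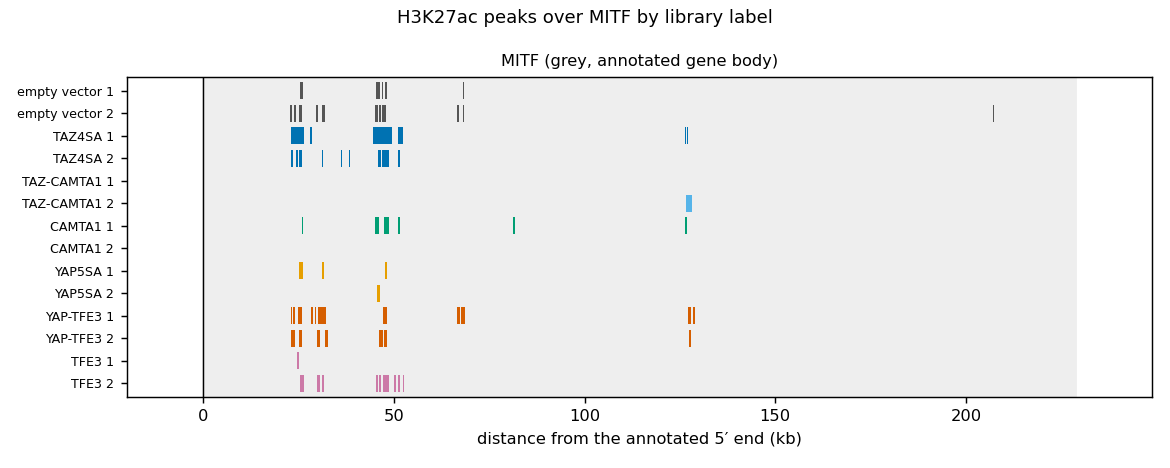
H3K27ac peaks over MITF by distance from the annotated 5′ end in kb, with 1 row per library and bars drawn to the width of each peak. Peaks gather at 22.76 to 32.77 kb and 44.66 to 49.44 kb, and no library has one over the 5′ end.

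Because lists differed in length, the bp of a window inside peaks were divided by the Mb that the whole list covered. For MITF this was 105 and 115 bp per Mb in the libraries labelled YAP-TFE3 and 140 and 103 in those labelled TFE3. It was 53.3 and 104 in the libraries labelled empty vector, 61.4 and 39.2 for TAZ4SA, and 44.0 and 19.2 for YAP5SA. It was 0 and 21.5 for TAZ-CAMTA1 and 60.5 and 0 for CAMTA1, the zeros being the libraries without a MITF peak. After this division the libraries with a TFE3-containing label were at the top, and overlapped the others only at empty vector replicate 2. Undivided coverage was highest in TAZ4SA replicate 1, at 10727 bp. It was 8541 and 5936 bp for YAP-TFE3, 516 and 6097 bp for TFE3, and 6714 bp in empty vector replicate 2. The groups were not compared on undivided coverage. The value of TFE3 replicate 1 rested on a single peak of 516 bp in a list covering 3.70 Mb.

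The mean coverage of MITF was 115.7 ± 16.9 bp per Mb (SD, n = 4) in libraries labelled YAP-TFE3 or TFE3 and 40.3 ± 31.8 (SD, n = 10) in the others. The difference was 75.4 (exact two-sided permutation test over all splits of 4 against 10 libraries, p = 0.00200), and 67.4 without TFE3 replicate 1 (exact permutation p = 0.00699). The splits moved single libraries, so replicates of a label counted as separate units and p does not measure the spread between constructs. Among peaks with a −log10 q of at least 5 the difference was 36.9 (exact permutation p = 0.0819). Windows of the MITF length, 268.9 kb, were laid end to end over chromosomes 1 to 22 and X, and 6.34% of the 6781 windows with coverage in at least 4 libraries had a p under 0.05. For 0.221% of them p was at or under that of MITF, and the p of MITF adjusted over these windows was 0.721, so the difference did not pass once all windows were counted. Grouped by the peak names, the difference for MITF was 20.4 (exact permutation p = 0.471), while 21.8% of windows had a p under 0.05. Among lists cut to 5721 peaks, TFE3 replicate 1 alone kept a MITF peak, so that setting could not test the difference. The best rank of MITF did not separate the groups (difference -0.10 in log10 rank percent, exact permutation p = 0.498).

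**Figure D3:**
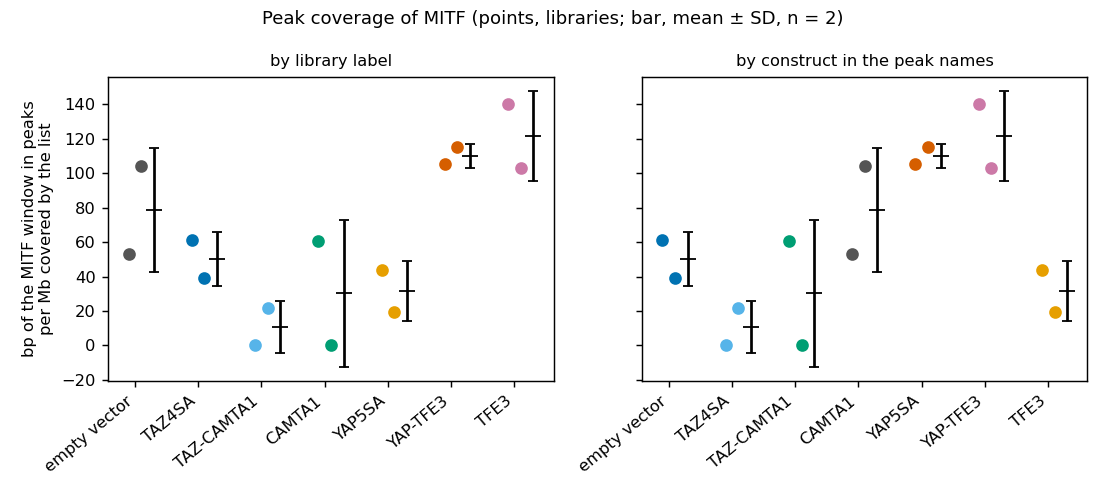
Peak coverage of the MITF window in bp per Mb covered by the list, grouped by label on the left and by the construct in the peak names on the right. Points are libraries in the colour of their label and bars are the mean ± SD of 2 libraries. The 4 libraries labelled YAP-TFE3 or TFE3 lie between 103 and 140. On the right the construct names are attached to other lists.

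TFEB, on the minus strand at chr6:41651716-41703997, had no peak over its annotated 5′ end in any library. No peak was found in the window in either empty vector library, TAZ-CAMTA1 replicate 1, YAP-TFE3 replicate 1 or TFE3 replicate 1. Of its 14 regions, 12 had a peak in no list but those labelled TAZ4SA, 85.7% against 50.1% of all 138636 regions. The same held for 10 of 13 regions of SQSTM1, 3 of 6 of FLCN, 1 of 2 of GPNMB and 2 of 15 of MITF, 28 of 50 over the 5 loci. The other 2 regions of TFEB were shared more widely. The region 10.66 to 15.75 kb downstream of the 5′ end had a peak in 9 libraries, and the region 0.55 to 3.53 kb downstream had a peak in 7.

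The best TFEB peaks were at 13.3% and 14.7% of the lists labelled TAZ4SA, with widths of 2504 and 2883 bp and 11.6-fold and 10.3-fold enrichment. They lay in the region nearest to the 5′ end, with summits at 1.82 and 1.79 kb. In the other 7 libraries with a peak the best rank ran from 33.9% in CAMTA1 replicate 1 to 81.2% in CAMTA1 replicate 2. In 6 of these 7 the best peak was in the 10.66 to 15.75 kb region, and it was narrow, 358 to 566 bp. The lists labelled TAZ4SA, which carry empty vector in their peak names, covered 14865 and 10974 bp of the window, and no other list more than 1172 bp. Per Mb covered by the list, coverage was 85.1 and 76.9 bp in the lists labelled TAZ4SA and at most 25.8 bp in any other. The lists labelled TAZ4SA were also the longest, and the part of list length in this difference was not tested. 2 libraries against 2 have a smallest exact p of 0.333, so single labels were not tested.

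**Figure D4:**
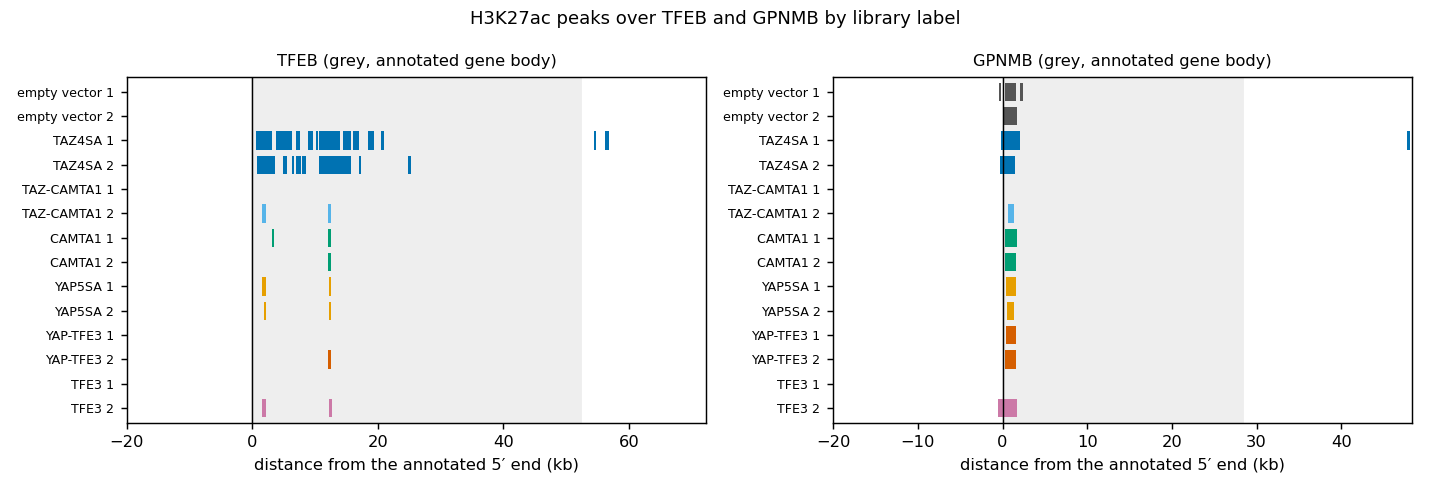
H3K27ac peaks over TFEB and GPNMB by distance from the annotated 5′ end in kb along the gene, with 1 row per library. For TFEB the rows labelled TAZ4SA hold 12 and 8 peaks and every other row 0 to 2. For GPNMB the peaks gather within 2.46 kb of the 5′ end, apart from 1 in TAZ4SA replicate 1 that starts at 47.77 kb.

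FLCN, on the minus strand at chr17:17115526-17140502, had a peak over its annotated 5′ end in 14 of 14 libraries. It was part of a region from -1.69 to 2.68 kb relative to the 5′ end. The rank of this peak was 10 of 57505 in YAP-TFE3 replicate 1 and 10 of 49855 in empty vector replicate 2. Its worst ranks were 261 of 48372 in TAZ-CAMTA1 replicate 2 and, as a percent of the list, 0.647% in TFE3 replicate 1, where it was 37th of 5721. The FLCN promoter was thus among the strongest peaks under every label. Its summit lay between -0.15 and -0.07 kb, just upstream of the 5′ end, in all 14 libraries.

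The FLCN promoter peak was 848 to 4254 bp wide, with a median of 2008 bp, and 13.9-fold to 57.4-fold over background. The narrowest was in TFE3 replicate 1 and the widest in TAZ4SA replicate 2. The lists labelled YAP-TFE3 had 48.9-fold and 31.2-fold enrichment, and those labelled TFE3 13.9-fold and 33.3-fold. Enrichment thus differed between replicates of a label as well as between labels. In log10 rank percent the libraries labelled YAP-TFE3 or TFE3 averaged -1.05 ± 0.65 (SD, n = 4) and the others -0.98 ± 0.44 (SD, n = 10; exact permutation p = 0.799). Grouped by the peak names, the difference was 0.10 (exact permutation p = 0.738).

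A pair of weaker regions lay downstream of FLCN. The region 30.02 to 33.40 kb from the 5′ end, past the end of the gene and on the side where RefSeq places PLD6, had a peak in 9 libraries at 17.3% to 58.9% of their lists. The region 43.88 to 48.02 kb away, at the edge of the window on the side of MPRIP, had a peak in 10, of which 6 reached into the window and 4 lay wholly outside it. By label neither separated the TFE3-containing group (exact permutation p = 0.500 and 0.600). Grouped by the peak names, both ranked worse in that group by 0.29 in log10 rank percent (exact permutation p = 0.0450 and 0.0310, adjusted over all regions 0.343 and 0.328). Under that naming 14.4% of all regions had a p under 0.05, 4672 of 4694 of them ranked worse in the TFE3-containing group, and the median difference over all regions was 0.17.

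SQSTM1, at chr5:179233388-179265078, had 2 to 12 peaks per library in 14 of 14 libraries. Its peaks fell mainly into a region over the annotated 5′ end, from -4.28 to 2.09 kb, and a region 8.47 to 16.73 kb inside. The inner region had a peak in 14 libraries and the region at the 5′ end in 13, all but TFE3 replicate 1. On GRCh38 the third RefSeq start of SQSTM1, whose CpG-rich sequence is shown above, is 14.5 kb from the first. RefSeq places MGAT4B on the upstream side within 20 kb, and peaks there cannot be assigned to SQSTM1 by position alone.

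The best SQSTM1 peak had its summit 12.96 to 15.07 kb inside the gene in 13 of 14 libraries, and at 0.78 kb in TAZ4SA replicate 1. It was widest in the lists labelled TAZ4SA, at 6315 and 7032 bp, where it ranked 4081 of 102009 and 2421 of 98992 at 28.3-fold and 28.5-fold. The lists labelled empty vector were at 9.63% and 4.55%. TFE3 replicate 1 was lowest at 35.7%, with a 582 bp peak of 5.34-fold, while TFE3 replicate 2 was at 9.37% with a 3384 bp peak of 11.4-fold. The replicates of TFE3 thus lay far apart. The other 8 libraries lay between 9.23% and 21.6%.

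By label, the best SQSTM1 peak ranked worse in libraries with a TFE3-containing label, at 1.22 ± 0.25 in log10 rank percent (SD, n = 4) against 0.94 ± 0.30 (SD, n = 10). The difference of 0.28 was not past the threshold (exact permutation p = 0.143) and was 0.16 without TFE3 replicate 1 (exact permutation p = 0.399). The median difference over all 32530 regions was 0.10 in the same direction. Grouped by the peak names, the difference was 0.19 (exact permutation p = 0.305). Coverage of SQSTM1 differed by 32.3 bp per Mb by label (exact permutation p = 0.515) and by 58.8 by the peak names (exact permutation p = 0.173). Without TFE3 replicate 1, in which 1330 bp of a 3.70 Mb list gave 360 bp per Mb, the difference by label was -37.0 (exact permutation p = 0.0140). The coverage of SQSTM1 therefore turned direction with the shortest list.

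**Figure D5:**
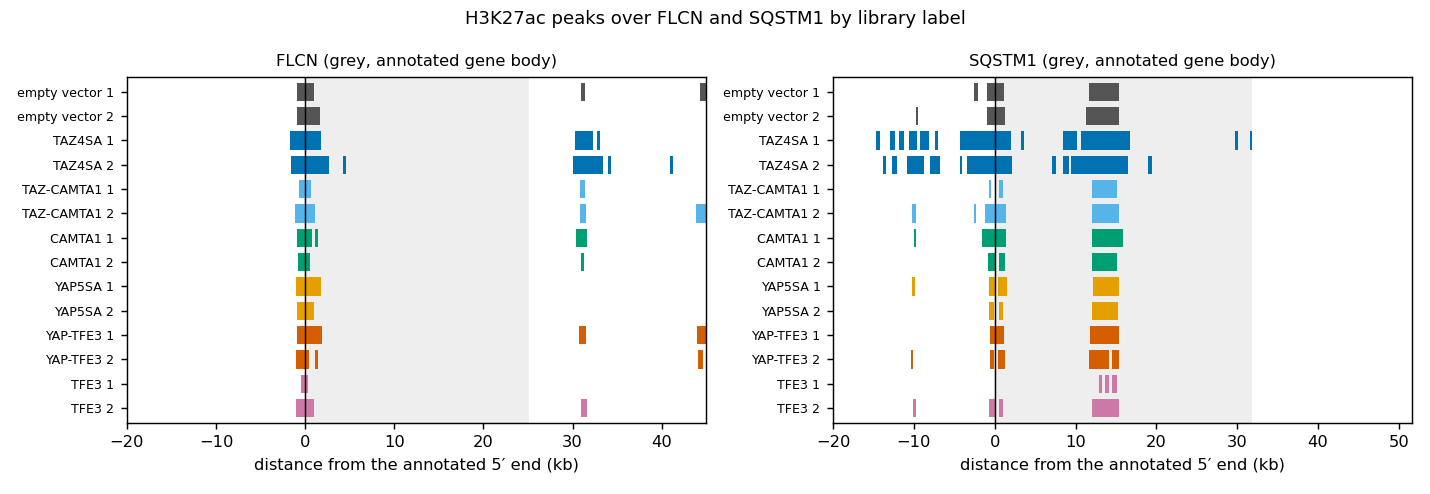
H3K27ac peaks over FLCN and SQSTM1 by distance from the annotated 5′ end in kb along the gene, with 1 row per library. A peak covers the 5′ end of FLCN in 14 of 14 rows, and the region 8.47 to 16.73 kb inside SQSTM1 holds a peak in every row. The best peak of each gene is narrowest in the row labelled TFE3 1, at 848 and 582 bp.

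GPNMB, at chr7:23286316-23314729, had a region from -0.56 to 2.46 kb relative to its 5′ end with a peak in 12 libraries. TAZ-CAMTA1 replicate 1 and TFE3 replicate 1 had none. The summit lay 0.83 to 1.24 kb downstream of the 5′ end in all 12, and the 5′ end itself was covered in 3 libraries, both labelled TAZ4SA and TFE3 replicate 2. The summits of the 12 libraries thus lay close together.

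The GPNMB peak was at 11.8% and 11.2% of the lists labelled TAZ4SA, at 10.3-fold and 10.6-fold. TFE3 replicate 2 came next, at 12.7% with a 2279 bp peak, the widest of the 12, and 8.16-fold enrichment. Its replicate had no peak, so the label TFE3 held both a high and an absent value. YAP-TFE3 was at 35.8% and 41.5%, YAP5SA at 41.3% and 34.7%, and empty vector at 20.5% and 44.5%. The log10 rank percent of the TFE3-containing labels, 1.57 ± 0.37 (SD, n = 4), differed from that of the others by 0.07 (exact permutation p = 0.715). Under the other naming the difference was also 0.07 (exact permutation p = 0.747).

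Across the 5 loci, 1 of 10 comparisons of the TFE3-containing labels with the others had an exact permutation p under 0.05, the coverage of MITF, where 6.34% of windows and, for ranks, 2.13% of regions had one by label and where the p adjusted over all windows was 0.721. The best rank of TFEB differed by 0.11 (exact permutation p = 0.599) and its coverage by -17.6 bp per Mb (exact permutation p = 0.268). Coverage differed by -1.3 for GPNMB (exact permutation p = 0.885) and by 38.9 for FLCN (exact permutation p = 0.224), where TFE3 replicate 1 alone stood at 229 bp per Mb. Without that library the FLCN difference turned to -6.3 (exact permutation p = 0.444). Without the lists labelled TAZ4SA the coverage difference of TFEB was -3.5 (exact permutation p = 0.564). By the names in the lists, TFEB differed by 0.07 in rank (exact permutation p = 0.744) and by -4.6 in coverage (exact permutation p = 0.923). Under that naming coverage differed by 1.4 for GPNMB (exact permutation p = 0.880) and by 44.3 for FLCN (exact permutation p = 0.130), and the rank of MITF by 0.10 (exact permutation p = 0.475).

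Whether libraries of a label were more alike at a locus than libraries of different labels was asked of the log10 rank percent of the best peak, against each of the 135135 possible pairings of the 14 libraries. The pairs are the same under either naming. The label share of the variance was 83.5% for TFEB (exact one-sided permutation p = 0.0514) and 73.2% for SQSTM1 (p = 0.0843, exact permutation). It was 70.9% for MITF (exact permutation p = 0.115), 55.8% for GPNMB (exact permutation p = 0.329) and 48.2% for FLCN (exact permutation p = 0.447). No locus passed the threshold. Without the lists labelled TAZ4SA the share for TFEB was 36.0% (exact permutation p = 0.642). It was then 44.8% for SQSTM1 (exact permutation p = 0.537), 51.9% for MITF (exact permutation p = 0.392) and 24.2% for GPNMB (exact permutation p = 0.845).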

How the data were processed

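The 14 H3K27ac peak lists of SW872 libraries were analysed. Their 14 input libraries were not used here. By the study's methods, the authors used BWA-MEM on trimmed reads with GRCh37, discarded reads mapping to several places or to greylist regions, and called peaks with MACS2 from paired-end data. A deposited line gives a peak with its fold enrichment (a ratio to local background), its −log10 p-value, its −log10 q-value and a score derived from it, as the authors' caller wrote them. The lowest −log10 q in any list was 1.30 to 1.33, a q of 0.05. The lists were separate for each library. The study's methods instead state reads pooled across replicates and a looser q threshold, so these lists differ from the methods on both points. Read totals were not used here, so depth is unknown and no counting interval was given.

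Groups came from the labels. The members, lists and tests were chosen with earlier results of these data known. Gene bodies on hg19 were widened by 20 kb, and all 5 genes are named. A peak counted at an overlap of 1 bp. A locus without a peak was ranked 1 past the end of its list. Locus comparisons were exact permutation tests, two-sided over all splits of 4 against 10 libraries, with unadjusted p-values, whose smallest possible value is 0.000999. Each library was a unit, and replicates of a label were not kept together in the splits. Merged regions of chromosomes 1 to 22 and X with a peak in at least 4 libraries were tested alike and adjusted by the Benjamini-Hochberg method over all 32530. No annotation of GRCh37 was used here and coordinates were not converted, so the wider list of lysosomal genes and cell type markers was not analysed, and the identity of SW872 was not checked against markers. Upstream sequences came from a RefSeq table of GRCh38.p14 with 35116 windows of 27305 gene symbols.

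Replicate numbers did not pair the samples. Over 4058 regions with a peak in every library, the correlation of replicate differences between labels had a median of 0.0270, and 2 of 21 were over 0.1. Other settings were a stricter q of 0.01, then a −log10 q of 5 or more, lists shortened to their 5721 best peaks, gene bodies without flanks, an overlap of at least 50% of the peak, ranks by fold enrichment, each library left out, the replicate block and the construct in the names. Ranks not divided by list length, lists without the label TAZ4SA, and the windows of the MITF length were chosen after seeing the data. The code was tested on simulated data. Python 3.11.15, numpy 2.4.6, pandas 2.3.3 and matplotlib 3.10.9 were used.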

Additional observations from a re-analysis of the deposited data

How the results depend on the processing

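Under alternatives that kept every library or left out the label TAZ4SA, 10 values turned direction, 3 fell out of significance, 3 came into it, 1 count of regions moved, and 114 did none of these. The 3 that fell out were all the MITF coverage. Values for MITF in lists shortened to 5721 peaks are among these counts but test nothing, as given below. Values are differences of TFE3-containing labels from the others, in log10 rank percent for ranks and bp per Mb for coverage, and the cause of each change was not tested. At a −log10 q of at least 5, the MITF coverage difference was 36.9 (exact permutation p = 0.0819), that of GPNMB 0.1 and that of SQSTM1 -5.5. In lists shortened to 5721 peaks it was -87.9 for SQSTM1. It was 34.9 for MITF, a value that, like the MITF rank and label share there, rests on the 1 library with a peak left, TFE3 replicate 1, and so tests nothing, and TFEB and GPNMB had no peak left. With the construct in the names as the group, the rank difference was 0.10 for MITF and for FLCN, the coverage difference was 20.4 for MITF and 1.4 for GPNMB, and the regions of the whole table with a p under 0.05 numbered 4694 in place of 693. With ranks not divided by list length, the log10 rank of MITF was lower by label, at -0.30 (exact permutation p = 0.00400), and the differences for TFEB and GPNMB were -0.09 and -0.13. The label share of variance for GPNMB was then 81.4% (exact permutation p = 0.0266). Ranked by fold, that share for TFEB was 83.8% (exact permutation p = 0.0421). Without the lists labelled TAZ4SA, the rank differences of TFEB and GPNMB were both -0.04. The MITF coverage difference had exact permutation p from 0.000999 to 0.471 over its alternatives.

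With 1 library left out at a time, the rank difference ran from -0.20 to 0.01 for MITF, from 0.04 to 0.19 for TFEB, from 0.16 to 0.36 for SQSTM1, from -0.07 to 0.23 for GPNMB and from -0.36 to 0.17 for FLCN. The coverage difference ran from 67.4 to 82.4 for MITF, from -21.9 to -10.9 for TFEB, from -7.6 to 5.2 for GPNMB, from -37.0 to 61.6 for SQSTM1 and from -6.3 to 55.5 for FLCN. The label share of variance ran from 74.0% to 90.5% for TFEB, from 44.7% to 88.4% for GPNMB and from 61.4% to 87.1% for SQSTM1. It passed 0.05 for TFEB without CAMTA1 replicate 2 (89.3%), TFE3 replicate 1 (90.2%) or TFE3 replicate 2 (90.5%), for GPNMB without either TFE3 library (87.6% and 88.4%), and for SQSTM1 without TFE3 replicate 2 (87.1%). With the replicate number of the labels as a block, no call changed, and the MITF coverage difference of 75.4 had an exact permutation p = 0.00454. The peak names number the lists labelled TAZ-CAMTA1 and TFE3 as replicates 2 and 3, so the block rests on the labels. The lists differ in length and hold no read totals, so a locus without a peak is not shown to lack H3K27ac.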
